A study of Mus musculus with 12 samples.

Results

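The interaction of the Usp18 and Ifnar1 genotypes asks, gene by gene, whether losing Usp18 had the same effect in mouse brains with and without the type I interferon receptor chain Ifnar1. It was computed as the difference between the double knockout and the Ifnar1 knockout, minus the difference between the Usp18 knockout and wild type. All 12 of the 12 arrays of the series enter it, 3 of each of the 4 genotypes. The genotypes, as the labels spell them, were WT, USP18ko (loss of Usp18), IFNARko (loss of Ifnar1) and USP18ko:IFNARko, called the double knockout here. The mice were adult and untreated and were housed free of specific pathogens, and total RNA of whole-brain lysate was hybridised to 1 Affymetrix 3' expression array per sample. Values are log2 signals per gene, so an interaction of 0 means that the log2 effects of both losses add up, which is multiplication on the signal scale. A negative interaction means that the double knockout lay below the level at which the effects would add up. The labels give no sex, strain, litter, batch or scan date and do not describe the deleted alleles, and nothing in them says that the 3 samples of a genotype were separate animals. P-values therefore cover only how far these samples differ from each other, which can be technical variation.

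Type I interferons bind a receptor made of the chains encoded by Ifnar1 and Ifnar2, whose kinases activate STAT proteins that join IRF9 and bind interferon-stimulated response elements in promoters. USP18 removes the ubiquitin-like modifier ISG15 from proteins and, through the receptor chain encoded by Ifnar2, also holds back receptor signalling. In brain, microglia are among the cells in which loss of this brake is known to raise interferon-stimulated genes.

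Stretches of 250 bases before the annotated start are shown for 5 genes that the results turn on. Ifit1 and Cxcl10 had the largest interactions for which all IFNARko arrays were low, Gbp2 and Igtp belong to families of which 1 IFNARko array stood apart, and Ifnar1 is a targeted gene whose own level was additive. Sequences are from RefSeq (build GRCm38.p6), read 5′ to 3′ along the gene. Capitals mark matches on either strand to the core of the interferon-stimulated response element, GAAANNGAAA, or to the core of the gamma-activated site, TTCNNNGAA, and matches of both kinds may overlap. The windows are chr19:34640639-34640888 (plus strand) for Ifit1, chr5:92348890-92349139 (minus strand) for Cxcl10, chr3:142620413-142620662 (plus strand) for Gbp2, chr11:58199306-58199555 (plus strand) for Igtp and chr16:91484965-91485214 (plus strand) for Ifnar1.
Ifit1: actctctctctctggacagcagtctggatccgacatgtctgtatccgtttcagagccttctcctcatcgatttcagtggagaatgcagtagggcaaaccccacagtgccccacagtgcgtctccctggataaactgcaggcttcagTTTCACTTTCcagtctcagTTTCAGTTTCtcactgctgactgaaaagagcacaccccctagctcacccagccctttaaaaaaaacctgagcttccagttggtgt
Cxcl10: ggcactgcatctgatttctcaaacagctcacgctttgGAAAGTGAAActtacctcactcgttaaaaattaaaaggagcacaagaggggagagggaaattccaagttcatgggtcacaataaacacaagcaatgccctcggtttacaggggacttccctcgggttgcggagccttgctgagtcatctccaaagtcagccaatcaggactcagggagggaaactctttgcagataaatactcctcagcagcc
Gbp2: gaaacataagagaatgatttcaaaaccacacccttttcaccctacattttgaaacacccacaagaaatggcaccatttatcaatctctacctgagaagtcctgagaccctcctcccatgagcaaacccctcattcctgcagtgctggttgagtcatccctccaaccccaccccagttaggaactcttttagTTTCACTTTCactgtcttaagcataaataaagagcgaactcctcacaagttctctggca
Igtp: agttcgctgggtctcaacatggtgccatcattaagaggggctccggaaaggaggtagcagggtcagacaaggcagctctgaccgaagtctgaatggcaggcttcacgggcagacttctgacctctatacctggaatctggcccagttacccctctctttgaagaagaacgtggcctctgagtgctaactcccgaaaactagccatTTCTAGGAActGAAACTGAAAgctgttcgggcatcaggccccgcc
Ifnar1: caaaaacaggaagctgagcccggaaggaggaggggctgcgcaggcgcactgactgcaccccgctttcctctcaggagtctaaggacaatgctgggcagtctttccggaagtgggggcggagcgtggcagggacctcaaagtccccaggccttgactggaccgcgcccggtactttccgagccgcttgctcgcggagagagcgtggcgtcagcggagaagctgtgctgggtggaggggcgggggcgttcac

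Counting the base before the start as -1, the response element core began at positions -104 and -85 for Ifit1, at -213 for Cxcl10, at -59 for Gbp2 and at -34 for Igtp, where a gamma-activated core began at -45. The Ifnar1 window held 0 matches to either core. Of the 102 genes with a called negative interaction, 80 had a promoter in the table, with 94 windows between them. The response element core was found in 21 of these 94 windows (22.3%), against 2.98% of all 32851 promoter windows and 2.74% of the windows of genes on the array. The gamma-activated core was found in 15 of the 94 (16.0%), against 7.02% of all windows and 6.0% of those of genes on the array. A match is a description of letters in the window, not a binding site shown by these data.

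Ifnar1 signals matched the labels of all 4 genotypes, while Usp18 signals told the groups labelled as lacking Usp18 from WT but not from IFNARko. Ifnar1 read 6.24, 6.59 and 6.47 in IFNARko and 6.56, 6.56 and 6.68 in the double knockout, below every WT (8.21, 7.44, 7.85) and USP18ko array (8.01, 7.76, 7.97). Usp18 read 3.76, 3.58 and 3.55 in USP18ko and 3.50, 3.71 and 3.69 in the double knockout, below the WT arrays (4.36, 4.36, 4.04). It read 3.55, 3.67 and 3.53 in IFNARko, where the gene was not targeted. The Usp18 difference between the double knockout and IFNARko was 0.05 (95% interval -0.20 to 0.31). Its signal therefore cannot show that the double knockout lacked Usp18. Defining brain transcripts were high in all arrays, such as Snap25 of neurons at 11.69 to 12.15 and Aqp4 of astrocytes at 10.17 to 10.89, while Cd3e, Cd4 and Cd8a of T cells read 4.94 to 6.34. IFNARko replicate 1 stood apart: its 3' minus 5' difference for actin was 1.48 against 0.20 to 0.54 in the other 11 arrays, and results that rest on it are given with and without it. The X-linked transcript Xist was high in WT replicate 1 (10.17) and in all double knockout arrays (11.21, 10.34, 11.34) and read 4.98 to 5.69 in the other 8 arrays. The Y-linked Eif2s3y was low in WT replicate 1 (3.18) and double knockout replicates 1 and 3 (3.05, 3.22) and 7.16 to 8.94 on the remaining 9. High levels of both transcripts were found in double knockout replicate 2 (Xist 10.34, Eif2s3y 7.16), and whether that sample was mixed was not tested. Transcripts that mark sex thus differed between and within genotypes. In bulk tissue, fewer cells of a type and less RNA per cell cannot be told apart.

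Losing Usp18 raised interferon-stimulated genes in brains with the receptor and left them near the IFNARko level in brains without it. Of 12393 genes, 105 (0.847%) had an interaction at an adjusted p under 0.05 (limma over all 12 arrays, Benjamini-Hochberg). The interaction was negative for 102 of them (0.823%) and positive for 3 (0.0242%). At an unadjusted p under 0.05 the interaction was negative for 447 genes and positive for 144, together 4.77% of genes. Over the 102 genes the median interaction was -1.99 on the log2 scale (range -5.34 to -0.80), against 0.0065 over all genes. It was at least 1 in size for 98 of them and at least 2 for 50.

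The 102 genes were chosen by their interaction over these same 12 arrays, so their group differences are a description. USP18ko minus WT had a median of 1.88 (0.60 to 4.997). The double knockout minus IFNARko had a median of -0.12 (-0.90 to 0.42), and its 95% interval held 0 for 95 genes and lay inside -1 to 1 for 92. In 100 of the 102 genes every USP18ko array was above the other 9 arrays, an arrangement that the choice of genes favours. It was found in 266 of all 12393 genes. Across all genes, 143 (1.15%) were called in USP18ko against WT, 142 higher (1.15%) and Usp18 itself lower (0.00807%), and 4.6% had an unadjusted p under 0.05. In the double knockout against IFNARko 0 genes (0%) were called, with 1022 (8.25%) at an unadjusted p under 0.05 and a smallest adjusted p of 0.228. That count of 0 was 814 when limma weighted the arrays by their agreement with their group (an estimation that stopped before its convergence tolerance was met), and 0 when IFNARko replicate 1 was left out, with 561 at an unadjusted p under 0.05.

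**Figure D1:**
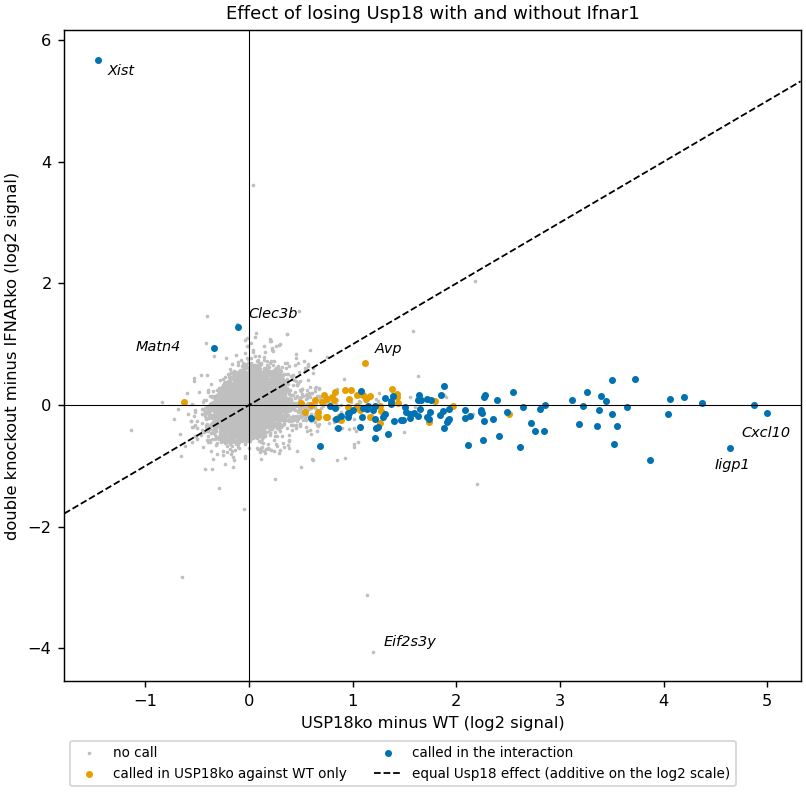
Difference between the double knockout and IFNARko (y axis, log2 signal) against the difference between USP18ko and WT (x axis, log2 signal), 1 point per gene, 12393 genes. Genes called in the interaction lie along y = 0 at x from 0.60 to 4.997, far from the dashed line of equal effects, except Xist, Clec3b and Matn4 above it. Avp, called in USP18ko against WT, lies near that line.

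The interaction contains USP18ko minus WT with its sign turned, so genes called in that comparison lean to an opposite interaction by construction. With this limit, 101 of the 142 genes that were higher in USP18ko than in WT were also called in the interaction. The remaining member of the 102 was Cmpk2, a mitochondrial nucleotide kinase next to Rsad2, which was named after its values were seen. Cmpk2 read 8.74, 8.69 and 8.35 in USP18ko, 7.75, 7.90 and 8.07 in WT, 7.58, 7.52 and 7.49 in the double knockout and 8.76, 7.86 and 7.97 in IFNARko. Its highest array was IFNARko replicate 1, which overlapped the USP18ko arrays. Its interaction was -1.35 (SE 0.28, adjusted p = 0.042) while USP18ko minus WT was 0.69 (adjusted p = 0.247). Without IFNARko replicate 1 the interaction was -1.07 (adjusted p = 0.00858). The call of Cmpk2 held in only 4 of the fits that each left out 1 array, that fit among them. It was lost with the Eif2s3y signal as a covariate (-1.16, adjusted p = 0.8855). A further probe set of Cmpk2 had an interaction of -0.11 (SE 0.62).

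Among antiviral effectors, whose products block steps of viral replication, 13 of 21 measured members had a called negative interaction and 0 a positive one, with a list median of -1.58. Ifit1, which binds foreign RNA ends, read 8.52, 8.36 and 8.84 in USP18ko, 3.69, 3.90 and 3.52 in WT, 3.82, 3.11 and 3.20 in IFNARko and 3.66, 3.15 and 3.31 in the double knockout. The 3 USP18ko arrays were high and the other 9 overlapped, so that the double knockout mean of 3.38 lay far below the 8.24 at which the effects would add up. The interaction of Ifit1 was -4.87 (SE 0.28, adjusted p = 1.01e-06). Ifit3, a partner of Ifit1, read 9.59, 9.32 and 9.55 in USP18ko and 4.76 to 5.53 in the other 9 arrays. It had the smallest adjusted p of all genes (interaction -4.06, SE 0.18, adjusted p = 1.82e-07). Rsad2, which encodes viperin, had an interaction of -3.95, Oasl2 of the oligoadenylate synthetase family -3.68 and the virion tether Bst2 -3.46. Oas2 had an interaction of -1.02 and missed the threshold (adjusted p = 0.0529), and the list's median difference between the double knockout and IFNARko was 0.0098.

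Other interferon-stimulated genes gave the highest share of calls among the larger lists, with 16 of 20 negative and a median of -2.31. Ifi27l2a, a mitochondrial interferon-induced gene, read 8.93, 8.79 and 8.69 in USP18ko and 3.81 to 5.18 in the other 9 arrays, and its interaction was -4.33 (SE 0.35, adjusted p = 2.26e-05). Rtp4 had an interaction of -3.89, the secreted Lgals3bp -3.38, the DNA-binding Ifi202b -3.30 and the ADP-ribosyltransferase family member Parp12 -2.53. In the ISG15 conjugation list 1 of 4 members was called, the ligase gene Trim25 at -1.23 (adjusted p = 0.0401). The Trim25 call was lost when any 1 of WT replicate 2 or 3, USP18ko replicate 1 or 3, a double knockout array, or IFNARko replicate 1 or 3 was left out. Ube2l6, which encodes the conjugating enzyme for ISG15, had an interaction of -0.74 (adjusted p = 0.416).

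The receptor, kinase and STAT genes that pass on the interferon signal gave no call. In the list of interferon receptors and JAK-STAT genes 0 of 16 members were called (1 at an unadjusted p under 0.05), and the median was -0.14. The 95% interval lay inside -1 to 1 for 15. Of all genes, 0.847% were called, 4.77% had an unadjusted p under 0.05 and 89.7% had such an interval. These counts thus do not set the list apart from other genes. Ifnar2, the other receptor chain, had an interaction of -0.18 (95% interval -0.63 to 0.26), and the receptor-bound kinase genes Tyk2 and Jak1 had -0.07 (-0.55 to 0.41) and 0.10 (-0.31 to 0.51). These 3 were named for their role and not by the rule for named genes. Stat2, whose product joins IRF9, read 6.17, 6.06 and 6.66 in USP18ko and 4.33 to 5.87 elsewhere, with 4.33 in IFNARko replicate 1. Its interaction was -0.01 (-0.84 to 0.82), and -0.40 without that array (adjusted p = 0.996). Among ligands, 0 of 16 cytokine and interferon genes were called (3 at an unadjusted p under 0.05, median -0.19). Ifnb1 read 4.31 to 4.93, Ifna4 3.20 to 3.47 and Ifng 3.18 to 3.51 over all 12 arrays, also named for their role. Signals of these ligand genes were low on a scale of 2.36 to 13.81 and had no detection call. They cannot tell an unchanged ligand gene from one without signal.

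Of the interferon regulatory factors, 3 of 8 were called, with a list median of -0.70. Irf7, the factor that amplifies interferon production, read 8.66, 8.24 and 8.66 in USP18ko, 5.22, 5.12 and 5.04 in WT, 4.69, 4.56 and 4.61 in IFNARko and 4.81, 4.69 and 4.79 in the double knockout. All 6 arrays without the receptor were below all 3 WT arrays. The interaction of Irf7 was -3.26 (SE 0.17, adjusted p = 4.34e-07). Irf8, a factor of myeloid cells, had an interaction of -1.08 and Irf9, the DNA-binding partner of STAT2, of -1.07, whereas Irf1 had -0.78 (adjusted p = 0.337). Among sensors and editors of nucleic acids 3 of 11 were called, all sensors of double-stranded RNA or their regulator: Ifih1 at -2.91, Tlr3 at -1.80 and Dhx58 at -1.67. The RNA editor gene Adar, mutated in an inherited interferon-driven brain disease, had an interaction of 0.08 (adjusted p = 0.982).

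**Figure D2:**
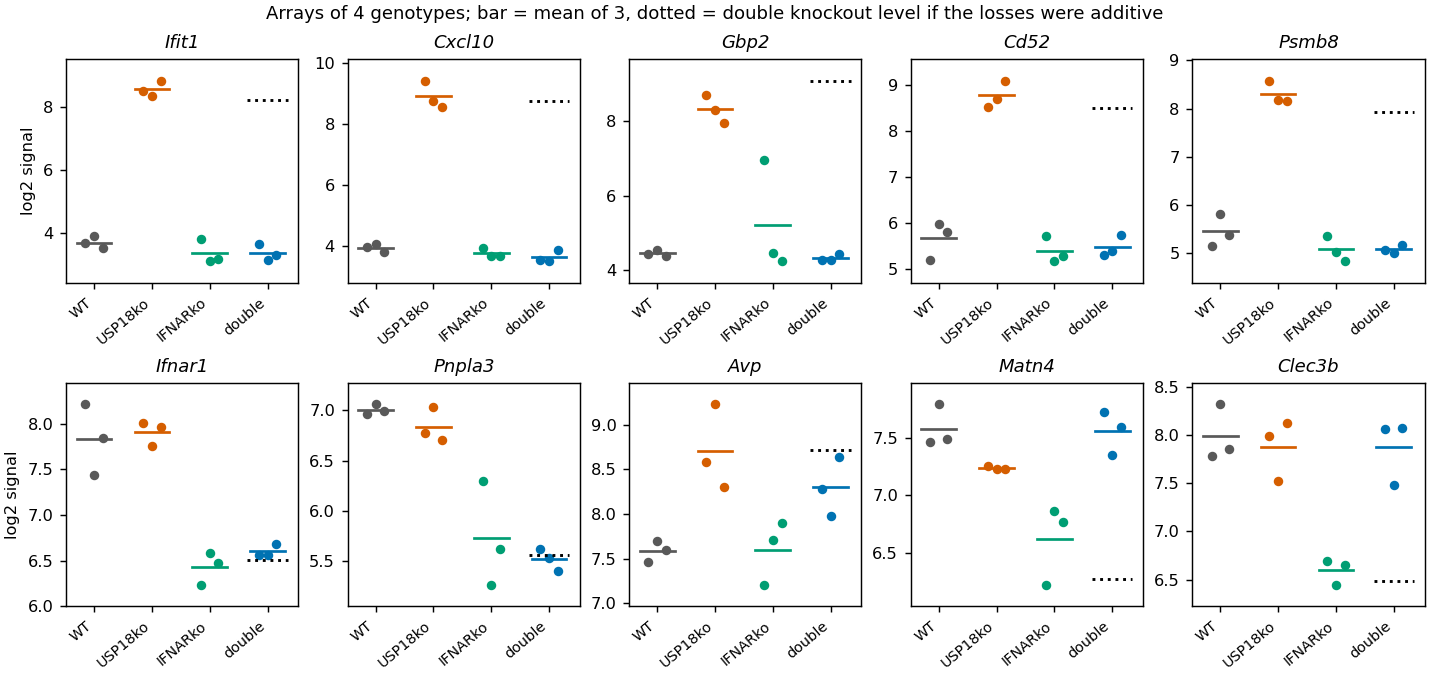
Log2 signal (y axis) of 10 genes in the 12 arrays, grouped by genotype (x axis), with bars at the mean of 3 arrays and a dotted line at the double knockout level for additive effects. In the 5 genes of the top row the double knockout arrays lie far below the dotted line, as for Ifit1 at 3.38 against 8.24, while Ifnar1 and Pnpla3 lie on it and Matn4 and Clec3b lie above it.

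Immunity-related GTPases and guanylate-binding proteins, enzymes that attack pathogen-containing vacuoles, had the largest list medians, -3.73 for the GTPases (4 of 4 called) and -3.28 for the binding proteins (5 of 6 called). Iigp1 read 9.30, 8.68 and 8.78 in USP18ko, 4.22, 4.52 and 4.11 in WT, 3.81, 3.74 and 3.93 in the double knockout and 5.72, 3.94 and 3.93 in IFNARko. Its interaction of -5.34 (SE 0.52, adjusted p = 9.09e-05) was the most negative of all genes. IFNARko replicate 1 lay between the USP18ko arrays and all others.

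The same array was raised for other members of both families. Gbp2 read 6.97, 4.47 and 4.24 in IFNARko against 4.37 to 4.55 in WT, 7.95 to 8.71 in USP18ko and 4.27 to 4.43 in the double knockout. Igtp read 7.51, 5.65 and 5.48 in IFNARko, and Irgm2 6.11, 4.18 and 4.28. Ifit1 at 3.82 and Cxcl10 at 3.93 in that array were inside the range of the WT arrays. They were still above the other IFNARko arrays (3.11 and 3.20 for Ifit1, 3.65 and 3.65 for Cxcl10). The rise was not confined to the 2 families: the antiviral list's median difference from WT was 0.14 in that array, against -0.35 and -0.31 in the others. Some genes were lower in it, such as H2-D1 (9.12 against 9.96 and 9.94). Of the 102 genes, 8 were higher in IFNARko replicate 1 than in both other IFNARko arrays by over 1, as were 84 of all genes, while 273 of all genes were lower by as much. Because a high IFNARko mean makes the interaction more negative, the interaction of Gbp2 went from -4.76 to -3.89 without that array, that of Iigp1 from -5.34 to -4.75 and that of Igtp from -4.16 to -3.51. The list medians went to -3.12 for the GTPases and -2.94 for the guanylate-binding proteins, with the same counts of 4 and 5 called. Over the whole array 103 negative and 3 positive interactions were called without it, and 99 of these 106 genes were among the 105.

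**Figure D3:**
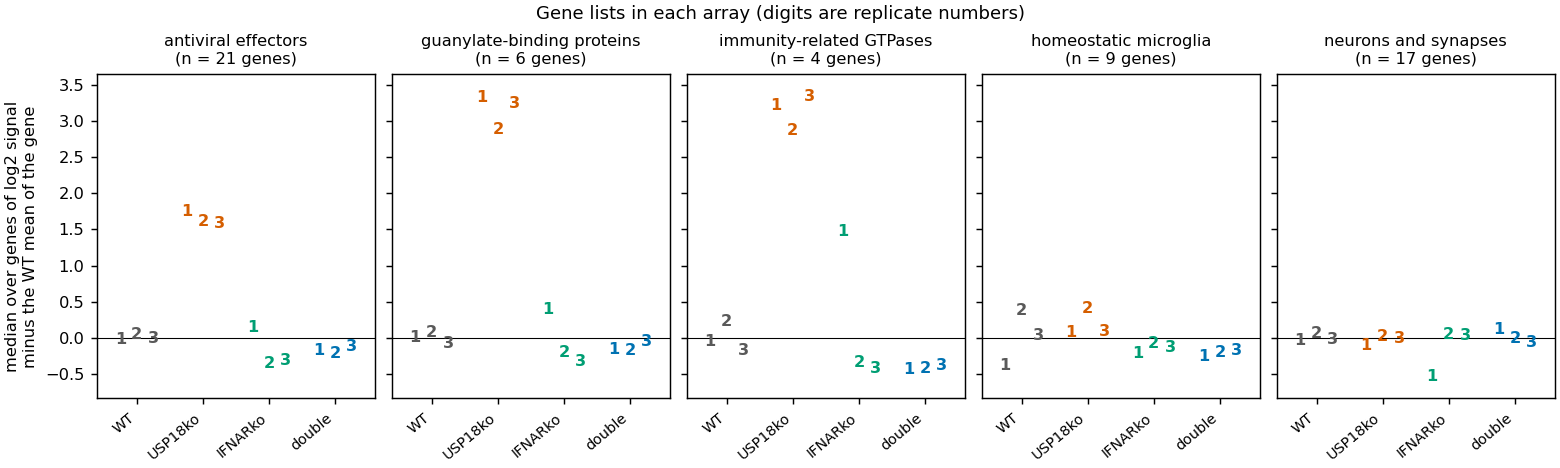
Median over the genes of a list of the log2 signal minus the gene's WT mean (y axis) in each array, by genotype (x axis), with digits for replicate numbers. USP18ko arrays lie at 1.59 to 1.74 for antiviral effectors and 2.87 to 3.34 for immunity-related GTPases, where IFNARko replicate 1 lies at 1.47 and the other IFNARko arrays and the double knockout lie below 0.

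Of 16 chemokines 5 had a called negative interaction, with a list median of -0.48. The estimate was below 0 for 14 of the 16, and the 95% interval lay inside -1 to 1 for 7. Cxcl10, which attracts T cells, read 9.42, 8.77 and 8.57 in USP18ko, 3.94, 4.04 and 3.78 in WT, 3.93, 3.65 and 3.65 in IFNARko and 3.52, 3.49 and 3.84 in the double knockout. The 9 other arrays overlapped, and the interaction was -5.12 (SE 0.27, adjusted p = 4.34e-07). The monocyte attractant Ccl12 had an interaction of -4.18 (adjusted p = 1.42e-05) and Ccl5, which attracts T cells and monocytes, of -2.67 (adjusted p = 5.26e-05). Cxcl1, a neutrophil attractant, read 5.01 in USP18ko replicate 2 and 2.87 to 3.64 in the other 11 arrays, so its interaction of -0.73 (adjusted p = 0.941) rests on 1 array.

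Several genes of antigen presentation by MHC class I had a called negative interaction. In the immunoproteasome and peptide loading list 5 of 9 were called (median -0.87), led by the proteasome subunits Psmb9 at -2.88 and Psmb8 at -2.85 and the peptide transporter Tap1 at -1.63. Psmb8 read 8.58, 8.19 and 8.16 in USP18ko and 4.84 to 5.82 in the other 9 arrays, and its double knockout minus IFNARko was 0.0011 (95% interval -0.39 to 0.39). When all probe sets of a gene were averaged the call of Tap1 was lost. Its further probe sets had interactions of -0.11, -0.01 and 0.12 (unadjusted p of 0.479, 0.952 and 0.387, limma on each probe set). The call of Tap1 thus rests on 1 probe set. In the MHC class I list 3 of 6 were called (median -1.62), namely B2m at -2.11, H2-K1 at -1.69 and H2-D1 at -1.56. The calls of H2-D1 and B2m were lost when any 1 of several arrays was left out, with the highest adjusted p of 0.132 and 0.768 over all alternatives, and class I genes are near-identical copies whose probes may cross-hybridise. In MHC class II 0 of 7 were called, against 0.847% of all genes, and 3 had an unadjusted p under 0.05, against 4.77% (median -0.65). H2-Aa had an interaction of -2.01 (adjusted p = 0.0874).

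Of the complement list 5 of 12 were called (median -1.29), including the receptor C3ar1 at -1.70, the integrin chain Itgb2 at -1.21 and the inhibitor Serping1 at -1.09. C1qa, a chain of the first component, had an interaction of -1.72 that did not pass (adjusted p = 0.337) and read 6.94, 8.85 and 8.10 in the WT arrays. That spread of WT values recurred in microglial genes. WT replicate 1 was low and replicate 2 high for Csf1r (9.16, 9.82, 9.60), Fcer1g (6.73, 8.19, 7.41) and Aif1 (5.30, 6.71, 6.25), the last named after its values were seen.

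Among microglia activation genes 8 of 22 were called (median -0.83). Of 9 homeostatic microglia genes 0 were called, 2 had an unadjusted p under 0.05 and 7 estimates were below 0 (median -0.20). Of all genes, 0.847% were called and 4.77% had an unadjusted p under 0.05, so a count of 0 among 9 is near the share of all genes. Cd52, a small surface glycoprotein, read 8.53, 8.71 and 9.09 in USP18ko and 5.16 to 5.98 in the other 9 arrays, with an interaction of -3.03 (SE 0.31, adjusted p = 1.21e-04). The high-affinity IgG receptor gene Fcgr1 had an interaction of -3.01 and the bacterial lipoprotein receptor gene Tlr2 of -1.20. Csf1r, the receptor that microglia need to survive, had -1.003 (adjusted p = 0.384). The summed log2 level of the 9 homeostatic genes was 62.1 to 66.5 in USP18ko, 59.5 to 66.1 in WT, 61.8 to 63.4 in IFNARko and 61.1 to 61.8 in the double knockout, and USP18ko overlapped WT and IFNARko. For the 22 activation genes the sum was 174 to 179 in USP18ko, 149 to 162 in WT, 151 to 155 in IFNARko and 152 to 154 in the double knockout.

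Of 13 lymphocyte markers 0 were called (0 at an unadjusted p under 0.05, median -0.08), against 0.847% of all genes. All 13 intervals lay inside -1 to 1, as did those of 89.7% of all genes. Signals had no detection call, so these counts cannot tell unchanged markers from markers without signal. The summed level of the 13 was 57.8 to 61.8 in USP18ko, 58.8 to 59.6 in WT, 56.7 to 61.4 in IFNARko and 57.9 to 59.4 in the double knockout. Of 7 monocyte and neutrophil markers 1 was called, Plac8 at -3.71 (adjusted p = 7.12e-04). The neutrophil protein gene S100a8 had an interaction of -1.76 (adjusted p = 0.777), with 5.84 in double knockout replicate 3 against 4.01 and 3.93 in the others. The summed level of these 7 was 36.8 to 37.9 in USP18ko, 29.4 to 30.4 in WT, 28.5 to 33.3 in IFNARko and 28.9 to 34.3 in the double knockout. Of 9 markers of perivascular macrophages 1 was called, Ms4a7 at -1.97, with 5 at an unadjusted p under 0.05, 8 estimates below 0 and a median of -0.72. Lyve1, a hyaluronan receptor gene, had -1.76 (adjusted p = 0.104), and without WT replicate 3 it was called as well (-2.07, adjusted p = 0.0296). Whether the numbers of such cells took part in any of these results was not tested.

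In lists of resident cells other than microglia, 1 gene was called, the adhesion molecule gene Icam1 at -1.82 (adjusted p = 0.00407) among 12 endothelial genes, with a median of -0.15. Of reactive astrocyte genes 0 of 11 were called (1 at an unadjusted p under 0.05; median -0.29). Lcn2, a secreted iron-binding protein, read 8.32 in USP18ko replicate 2 and 3.51 to 4.28 in the other 11 arrays. Counts were 0 of 12 for astrocytes (median -0.02), 0 of 17 for neurons and synapses (0.13), 0 of 6 for choroid plexus and ependyma (0.06) and 0 of 11 for meningeal fibroblasts and mural cells (-0.12). Of all genes 0.847% were called, so a count of 0 does not set a list of this size apart from other genes. Of 10 genes of oligodendrocytes and myelin 0 were called, with 0 at an unadjusted p under 0.05. Of the 10 estimates 9 were above 0 (median 0.23), and 3 had a 95% interval inside -1 to 1, against 89.7% of all genes. WT replicate 2 stood apart for these genes, with a summed log2 level of 96.0 against 78.1 and 74.3 in the other WT arrays and 77.1 to 85.0 in the other genotypes. Without that array the median was -0.36, with 2 of 10 above 0. The vesicle protein gene Syt1 read 6.49 in IFNARko replicate 1 and 8.52 to 9.36 in the other 11 arrays, and the neuronal list's median was -0.0036 without that array. Of 11 immediate early genes, which neurons switch on with activity, 0 were called (1 at an unadjusted p under 0.05; median -0.08).

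**Figure D4:**
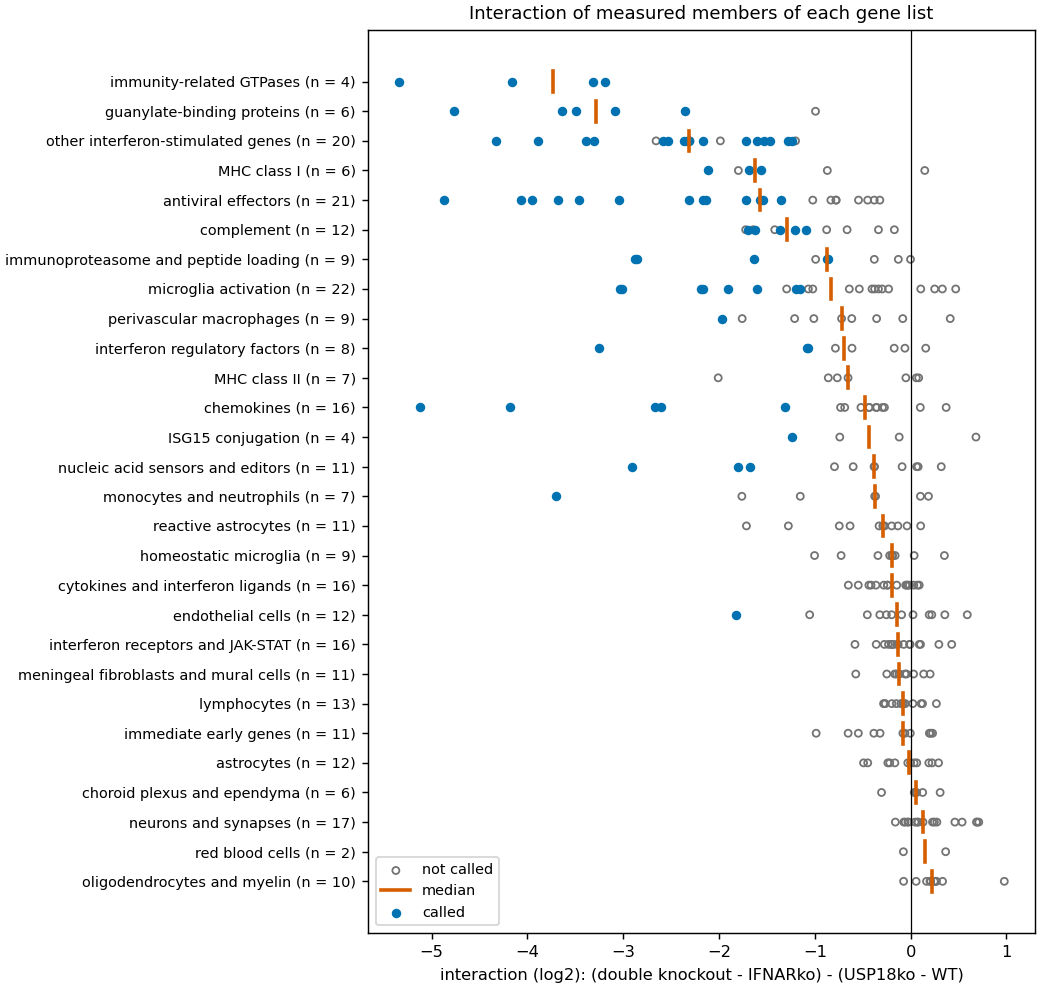
Interaction on the log2 scale (x axis) of each measured member of 28 gene lists (y axis), filled where called at an adjusted p under 0.05 and open where not, with the list median as a bar. Lists of interferon-stimulated genes lie at the top with medians down to -3.73, and lists of neurons, astrocytes and lymphocytes have medians of -0.08 to 0.13 and no called member. Of all genes, 0.847% were called.

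Levels without the receptor were also compared with WT for the 102 genes. IFNARko minus WT had a median of -0.09, against -0.0099 over all genes, and 66 of 102 were below WT. Without IFNARko replicate 1 the median was -0.24, against -0.03 over all genes, and 86 were below. The double knockout minus WT had a median of -0.24, with 91 of 102 below WT. Both differences share the WT arrays, so they are given side by side and not compared. Values of every genotype took part in choosing the 102 genes, so these medians and counts are a description. The share of all genes below WT was not computed.

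Of the 143 genes called in USP18ko against WT, 42 were not called in the interaction. Their median interaction was -0.95 and 41 had an unadjusted p under 0.05, and 17 of the 42 had an adjusted p under 0.1. Genes chosen by USP18ko against WT lean to an opposite interaction by construction, so these counts are a description. The double knockout minus IFNARko of these 42 had a median of 0.05 (-0.30 to 0.70). Ms4a6d, a membrane protein gene of macrophages, read 6.23, 7.54 and 6.71 in USP18ko and 3.47 to 4.99 in the other 9 arrays, with an interaction of -2.66 (adjusted p = 0.0503). The mitochondrial membrane protein gene Tspo, a marker of active glia, had -1.25 (adjusted p = 0.066) and Znfx1, a sensor of viral RNA, -0.61 (adjusted p = 0.152). For 1 of the 42 the interaction had an unadjusted p of 0.05 or more. It was Avp, the gene of the hormone vasopressin, named after its values were seen. Avp read 8.58, 9.23 and 8.30 in USP18ko and 8.28, 7.98 and 8.64 in the double knockout, above all WT (7.46, 7.70, 7.602) and IFNARko arrays (7.21, 7.70, 7.89). Both groups without Usp18 were high and did not overlap the others, and the interaction was -0.42 (95% interval -1.15 to 0.31, adjusted p = 0.941).

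A missing call does not show that losses were additive, so the width of the interval was used. The 95% interval of the interaction lay inside -1 to 1 for 11120 genes (89.7%) and inside -0.5 to 0.5 for 4316 (34.8%), with a median half-width of 0.417. Genes that responded to a loss were found by the effect averaged over both backgrounds. The average Usp18 effect was called for 84 genes (0.678%), 81 higher (0.654%) and 3 lower (0.0242%), with 8.27% of genes at an unadjusted p under 0.05. Of the 84, 15 had no called interaction. The average Ifnar1 effect was called for 164 genes (1.32%), 142 lower (1.15%) and 22 higher (0.178%), with 10% of genes at an unadjusted p under 0.05. Of the 164, 73 had no called interaction. Without IFNARko replicate 1 the average Ifnar1 effect was called for 270 genes, 227 lower and 43 higher, with 163 of the 164 among them.

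For Usp18 loss, 4 of those 15 genes had an interaction with an unadjusted p of 0.05 or more, namely Avp, Plvap, Krit1 and Dera, and for the last 3 the interval lay inside -1 to 1. All but Plvap were named after their values were seen. Plvap, a protein of fenestrated vessels, read 9.06, 8.92 and 8.89 in USP18ko against 8.39, 8.07 and 8.81 in WT, and 8.90, 8.59 and 8.57 in the double knockout against 8.005, 7.93 and 7.97 in IFNARko. It was higher without Usp18 on both backgrounds with no overlap between the groups (average effect 0.63, adjusted p = 0.02; interaction 0.18, interval -0.31 to 0.68). Krit1, a gene of cerebral cavernous malformations, was lower without Usp18 on both (average effect -0.51, adjusted p = 0.0256; interaction -0.21, -0.63 to 0.20). Dera, an enzyme of deoxyribose breakdown, was higher by 0.64 on average (adjusted p = 0.0456), with an interaction of 0.38 (-0.19 to 0.95). Each of these 3 shifts was under 1 log2 unit. None of the 3 genes was called on either background alone. The adjusted p was 0.305 for Plvap, 0.494 for Krit1 and 0.873 for Dera in USP18ko against WT, and 0.566 for each in the double knockout against IFNARko (limma). Dera lies on chromosome 6, as Usp18 does.

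For Ifnar1 loss, 40 of those 73 genes had an interaction with an unadjusted p of 0.05 or more, and the interval lay inside -1 to 1 for 36 of them, 20 lower and 16 higher without the receptor. Ifnar1 itself was such a gene, with an average effect of -1.36 (adjusted p = 2.31e-05) and an interaction of 0.09 (95% interval -0.42 to 0.60). Pnpla3, a lipid hydrolase gene, read 6.97, 7.06 and 6.99 in WT and 6.77, 7.03 and 6.70 in USP18ko, above 6.30, 5.27 and 5.62 in IFNARko and 5.62, 5.53 and 5.40 in the double knockout. The 6 arrays without Ifnar1 were low and did not overlap the other 6, with an average effect of -1.30 (adjusted p = 1.78e-04) and an interaction of -0.04 (-0.65 to 0.57). Serpina3n, a protease inhibitor of reactive astrocytes, was lower without Ifnar1 by an average of -0.87 (adjusted p = 8.19e-04) and Tifa, an adaptor of NF-kappaB signalling, by -0.64 (adjusted p = 0.00192). Their interactions were -0.29 (-0.78 to 0.20) and -0.24 (-0.63 to 0.15). Cdc7, a kinase of DNA replication, rose by 0.46 without Ifnar1 (adjusted p = 0.0026), Tekt1, a protein of cilia, by 0.43 (adjusted p = 0.0056) and Fah, of tyrosine breakdown, by 0.41 (adjusted p = 0.0071), with interactions of -0.16, 0.05 and -0.08. These last 3 were named after their values were seen.

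A called positive interaction was found for 3 genes and 0 of the 3 were called in USP18ko against WT. Matn4, a matrix protein gene, read 6.22, 6.86 and 6.77 in IFNARko against 7.46, 7.79 and 7.49 in WT, 7.25, 7.23 and 7.23 in USP18ko and 7.73, 7.35 and 7.59 in the double knockout. Clec3b, which encodes tetranectin, read 6.69, 6.45 and 6.65 in IFNARko and 7.48 to 8.32 in the other 9 arrays. For both genes the IFNARko arrays were low and the double knockout overlapped WT, with an interaction of 1.28 for Matn4 (SE 0.23, adjusted p = 0.0155) and of 1.39 for Clec3b (SE 0.28, adjusted p = 0.0368). The call of Matn4 was lost without USP18ko replicate 3 or double knockout replicate 1 or 3, and that of Clec3b without any 1 of 9 arrays, IFNARko replicate 1 among them (adjusted p = 0.0549), and with the replicate number as a block (adjusted p = 0.0573).

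Xist had the largest interaction in size, 7.13 (SE 1.37, adjusted p = 0.0237), with the values given above. It was lost when any 1 of the USP18ko arrays was left out, among others. The Y-linked Eif2s3y had an interaction of -5.25 (adjusted p = 0.527). With the Eif2s3y signal as a covariate Xist was not called (3.56, adjusted p = 0.386), and 51 genes were, all 51 negative and all among the 105. Xist was high in every double knockout array and elsewhere only in WT replicate 1, and double knockout replicate 2 was high for Eif2s3y as well. The covariate therefore cannot separate a sex-linked difference from the double knockout genotype. Of the named calls, Gbp2, Irgm1, Irf8 and Icam1 were among those lost. Gbp2 went from -4.76 to -4.62 (adjusted p = 0.115) and Irgm1 from -3.19 to -2.82 (adjusted p = 0.0577). Irf8 went from -1.08 to -1.05 (adjusted p = 0.226) and Icam1 from -1.82 to -1.68 (adjusted p = 0.132). Some other lost calls shrank more: B2m went from -2.11 to -1.415 (adjusted p = 0.768) and Aif1 from -2.17 to -1.31 (adjusted p = 0.702). H2-D1, also lost, moved the other way, from -1.56 to -1.73 (adjusted p = 0.132). Besides Xist, 1 of the 105 genes lies on the X chromosome, the NADPH oxidase gene Cybb at -1.16, named for its position.

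The scale decides what additive means. On unlogged signals, where effects add as signal and not as fold, 58 genes were called, 57 negative and 1 positive, and 53 of the 58 were among the 105. Of the 48 named genes with a called interaction on the log2 scale, 29 were called with the same sign on unlogged signals. Of the 102 genes, 30 had further probe sets. For 28 of the 30 all of these were below 0, and for 24 at least 1 of them had an unadjusted p under 0.05. The exceptions were H2-D1, with further probe sets at 0.13 and 0.11, and Tap1 at 0.12, at p of 0.387 to 0.516.

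**Figure D5:**
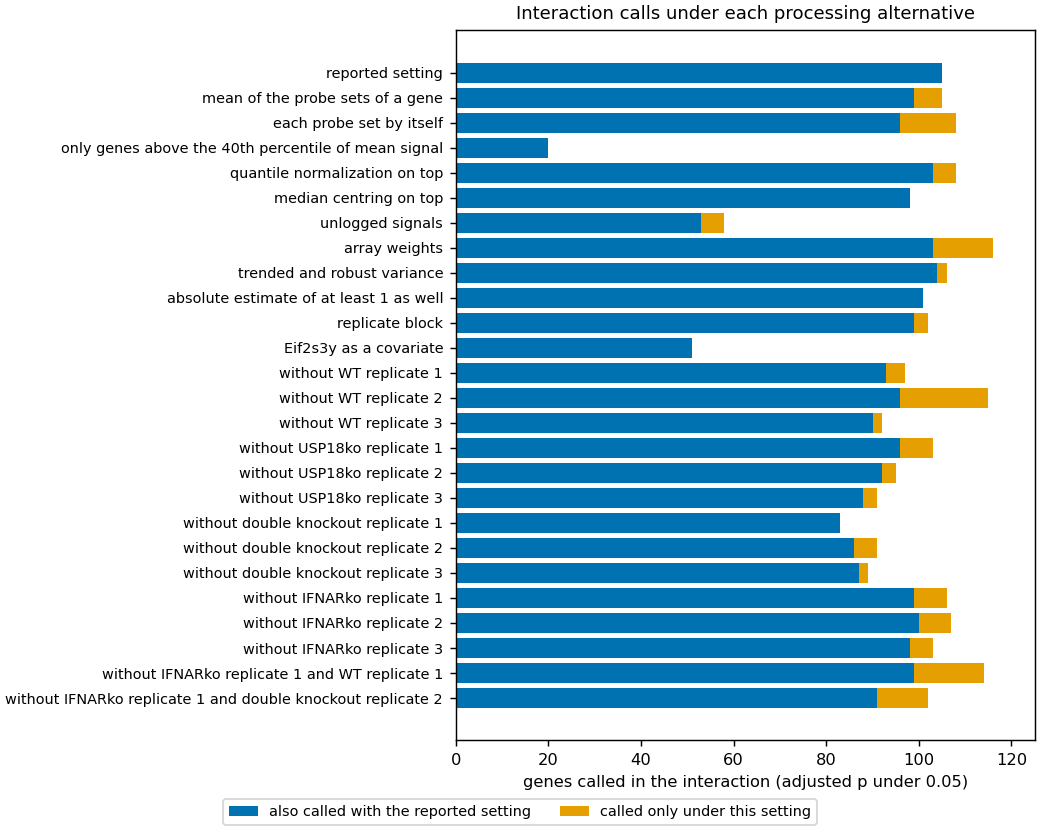
Genes called in the interaction (x axis) under the reported setting and each alternative (y axis), split into genes called with the reported setting and genes called only under the alternative. Counts lie between 83 and 116 except with low-signal genes removed (20), with Eif2s3y as a covariate (51) and on unlogged signals (58).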

How the data were processed

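The authors deposited 1 log2 signal per probe set and array, and the R package affy is a tool that the submitters' processing notes name. Not given in the sources used here are the version of affy, the background correction and the normalization. The log base was inferred from the values (2.36 to 13.81). No scanner files were used, so a low signal has no detection call. The genotype label of each sample set its group.

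Of 22690 probe sets, 64 were controls and 20380 had 1 gene in GEO's platform annotation, whose symbols may be dated. Another 691 had several genes and 1555 had no symbol there. For a gene with several probe sets, that of the largest mean signal was used, leaving 12393 genes. All genes were fitted with limma 3.58.1 in R 4.3.3 (lmFit, contrasts.fit, eBayes) in 1 model of 4 genotype means with 8 residual degrees of freedom and 4.67 prior degrees of freedom. Tests were two-sided, adjusted by Benjamini-Hochberg over all genes, and called at an adjusted p under 0.05. Intervals are per gene at 95% and are not adjusted over genes. The fit was tested on simulated data with known interactions before use. In these a gene had the same spread in all arrays and no array stood apart, so that test does not cover such differences between the real arrays.

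Named genes are Usp18 and Ifnar1, the 20 most negative and up to 10 positive called interactions (the 5 with the smallest p where fewer than 5 were called), up to 3 called members of each list with the smallest p, the uncalled member of each list with the largest USP18ko difference, 6 genes each of those called in USP18ko against WT, the average Usp18 effect or the average Ifnar1 effect but not in the interaction, and the listed sex-linked transcripts. The 29 lists held 384 entries, of which 315 had a value, and Isg15 had no probe set with 1 gene. Members and lists were chosen with earlier results of these data known. Alternatives were other treatments of probe sets, low signals, normalization, scale, array weights, variance and threshold, the replicate number as a block, Eif2s3y as a covariate, and fits without 1 or 2 arrays.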

Additional observations from a re-analysis of the deposited data

Results flagged for a closer look

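The Usp18 effect differed between brains with and without Ifnar1, by the test of the difference itself, for 105 genes. Each named gene among them is given here with its interaction on the log2 scale. Interactions under -4 were those of Iigp1 (-5.34), Cxcl10 (-5.12), Ifit1 (-4.87), Gbp2 (-4.76), Ifi27l2a (-4.33), Ccl12 (-4.18), Igtp (-4.16) and Ifit3 (-4.06). Those from -4 to -3 were of Rsad2 (-3.95), Rtp4 (-3.89), Plac8 (-3.71), Oasl2 (-3.68), Gbp6 (-3.64), Gbp3 (-3.49), Bst2 (-3.46), Lgals3bp (-3.38), Irgm2 (-3.31), Ifi202b (-3.30), Ifi47 (-3.27), Irf7 (-3.26), Irgm1 (-3.19), Gbp2b (-3.08), Cd52 (-3.03) and Fcgr1 (-3.01). Those from -3 to -2 were of Ifih1 (-2.91), Psmb9 (-2.88), Psmb8 (-2.85), Ccl5 (-2.67), Parp12 (-2.53), Gbp7 (-2.36) and B2m (-2.11). The others were Ms4a7 (-1.97), Icam1 (-1.82), Tlr3 (-1.80), C3ar1 (-1.70), H2-K1 (-1.69), Dhx58 (-1.67), Tap1 (-1.63), H2-D1 (-1.56), Trim25 (-1.23), Itgb2 (-1.21), Tlr2 (-1.20), Serping1 (-1.09), Irf8 (-1.08) and Irf9 (-1.07). Positive interactions were those of Xist (7.13), Clec3b (1.39) and Matn4 (1.28).

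Among probe sets that the annotation gives no single gene, which entered no comparison, 25 also had a called interaction in a limma fit of their own, 24 negative and 1 positive. The positive one was at 2.12 and the most negative at -6.08.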

How the results depend on the processing

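Of 1166 values of called named genes under alternatives 0 changed sign. Of 1121 values of those not called 48 did, in 12 of 46 genes, and 0 of these were called. Of all 2287 values, 94 fell from called to not called and 34 the reverse. Among the 48 named calls, 41 held with each array left out in turn, as did 80 of all 105. The interaction count of 105 became 20 when genes under the 40th percentile of mean level were removed, which keeps 31 of the 105, 58 on unlogged signals and 51 with Eif2s3y as a covariate. It was 83 to 115 over single omissions. For USP18ko against WT (143), the low-signal filter gave 28 and single omissions 117 to 184. For the double knockout against IFNARko (0), array weights, whose estimation stopped before its convergence tolerance was met, gave 814, leaving out IFNARko replicate 1 with WT replicate 1 or with double knockout replicate 2 gave 1 each, and single omissions 0 to 3, with 3 without double knockout replicate 2. For the average Usp18 effect (84), the filter gave 14, unlogged signals 48, array weights 131, an estimate of at least 1 as well 38, and omission of IFNARko replicate 1 with WT replicate 1 gave 134, with 60 to 124 over single omissions. For the average Ifnar1 effect (164), the same settings gave 26, 86, 321, 68 and 563, and single omissions 114 to 270, the highest without IFNARko replicate 1. With a bound of 0.5 in place of 1, 4316 and not 11120 genes had an interval inside it. Where no construction is named, the cause was not tested.

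With the replicate number as a block 102 genes were called, 99 of them among the 105. Deviations of same-numbered arrays correlated at -0.15 to 0.27, above 0.1 in 6 of 18 pairs of arrays, so over the 4 genotypes the arrays were taken to share only a number. Between USP18ko and the double knockout all 3 pairs were above 0.1 (0.14 to 0.27) and 6 of 6 arrays correlated best with their own number, a hint from the data and not the design. Between the other genotypes this held for 0 to 4 of 6 arrays. Among the named calls the block ended that of Clec3b (adjusted p = 0.0573). The number of arrays limits precision: the median half-width of the interval was 0.417.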

Other observations

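Hox genes, which are expressed in hindbrain and spinal cord, varied widely between arrays of 1 genotype and were chosen after their values were seen. Hoxa5 had a mean of 5.10 (SD 2.89, n = 3) in WT, 7.28 (SD 0.59) in USP18ko, 5.87 (SD 2.28) in IFNARko and 7.91 (SD 0.08) in the double knockout. The Hoxa5 differences of 2.18 (USP18ko minus WT) and 2.04 (double knockout minus IFNARko) were similar in size and neither was called (smallest adjusted p = 0.576, limma). Its interaction of -0.14 had a 95% interval of -3.85 to 3.57. Hoxb5 gave 1.58 and 1.23.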
